A study of Mus musculus with 46 samples.

Results

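The miRNA levels of intact brain were compared with those of intact liver, intact meaning total RNA with a RIN value (RNA integrity number, which falls as RNA breaks down) over 7. This choice took 14 brain and 6 liver arrays, 20 of the 46 arrays of the series. All of the tissue came from male C57BL6 mice of an Il1a knock-out strain, so that brain and liver share this deletion. No age was given in the sources used here. The methods state that each organ was divided into parts of about equal size right after death and that every part was kept for 1 storage time, and each array therefore held another part of the organ. The brain parts had been kept at 4 °C for 0, 1, 3, 6, 12, 24, 48 and 96 h, or at room temperature (RT) for 0, 1, 3, 6, 12 and 24 h, with RIN values of 7.3 to 8.7. The liver parts had been kept at 4 °C for 0, 1, 3, 12 and 24 h, or at RT for 0 h, with RIN values of 7.1 to 9.1. By the methods and the RIN values, each temperature stood for 1 animal that gave both organs, so that the 20 arrays came from 2 animals. The p-values below measure the spread between parts and arrays, not between mice. The arrays lay on 4 slides, each with 1 tissue at 1 temperature, and tissue and slide cannot be told apart.

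MiRNAs are short RNAs that guide Argonaute proteins to messenger RNAs, mostly through the seed, the bases 2 to 8 from the 5′ end. MiRNAs with the same seed form a family and can bind the same targets. Each hairpin precursor yields a 5p and a 3p arm, of which 1 is often the more stable. Some miRNAs are close to private to a cell type, such as miR-124 and miR-9 in neurons and neural progenitors, and miR-122 in hepatocytes, the main cells of the liver. Brain also holds oligodendrocytes, astrocytes, microglia and vessels, and liver holds Kupffer cells, stellate cells and endothelium. In such mixed tissue, fewer cells of a type and less RNA per cell cannot be told apart.

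Mature sequences were taken from RefSeq (build GRCm38.p6), where 511 of the 595 tested miRNAs had an entry under the same name. They are printed 5′ to 3′ with the seed in capitals. The first set shows miRNAs with the largest differences in favour of brain, none of which share a seed.
miR-9-3p: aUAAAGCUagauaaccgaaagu
miR-9-5p: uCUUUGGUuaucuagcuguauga
miR-138-5p: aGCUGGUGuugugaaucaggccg
miR-128-3p: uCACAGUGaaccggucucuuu
miR-153-3p: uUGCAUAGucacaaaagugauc
miR-218-5p: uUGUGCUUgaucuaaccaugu
miR-379-5p: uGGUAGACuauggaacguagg
miR-127-3p: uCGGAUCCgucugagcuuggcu

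The arms of miR-9 can come from 3 hairpins, at chr3:88215598-88215686, chr7:79505264-79505353 and chr13:83738814-83738885, all on the + strand, and the arrays cannot tell these apart. The hairpins of miR-128 lie inside the genes R3hdm1 and Arpp21, those of miR-218 inside Slit2 and Slit3, and that of miR-153 inside Ptprn2. The hairpins of miR-379 (chr12:109709060-109709125) and miR-127 (chr12:109592846-109592915) belong to the imprinted Dlk1-Dio3 region. The second set shows miRNAs with the largest differences in favour of liver.
miR-192-5p: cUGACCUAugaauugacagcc
miR-194-5p: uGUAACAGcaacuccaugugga
miR-802-5p: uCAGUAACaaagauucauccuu
miR-10a-5p: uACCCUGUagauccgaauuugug
miR-148a-3p: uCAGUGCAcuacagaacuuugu
miR-199a-5p: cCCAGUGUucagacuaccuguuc
miR-21a-5p: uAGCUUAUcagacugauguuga

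The hairpin of miR-192 (chr19:6264844-6264932, + strand) stands next to 1 of the hairpins of miR-194 (chr19:6264643-6264728), while the other miR-194 hairpin is inside Iars2 on chromosome 1. The hairpin of miR-10a (chr11:96317165-96317274) is inside Hoxb3 of the Hoxb gene cluster, and that of miR-21a (chr11:86584067-86584158) inside Vmp1. The third set shows families with 1 seed whose members differed in opposite directions between the tissues, which are described with the results.
miR-193a-3p: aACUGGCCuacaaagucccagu
miR-193b-3p: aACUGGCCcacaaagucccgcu
miR-148b-3p: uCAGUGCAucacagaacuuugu
miR-152-3p: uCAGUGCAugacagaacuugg
miR-130a-3p: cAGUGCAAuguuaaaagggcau
miR-130b-3p: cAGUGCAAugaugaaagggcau
miR-301a-3p: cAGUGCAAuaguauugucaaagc

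Levels are the deposited log2 values after variance stabilizing normalization (VSN), which bends towards a linear scale near the background. Differences are brain minus liver on this scale. The marker miRNAs of both tissues lay on the side that the labels give. MiR-124-3p had levels of 13.11 to 13.86 (median 13.45) on the brain arrays, and of -1.90 to -0.08 (median -0.87) on the liver arrays, where the scanner software flagged it as detected on 0 of 6. MiR-122-5p had levels of 12.67 to 15.36 (median 14.83) in liver and of 1.80 to 4.86 (median 2.26) in brain. On 13 of the 14 brain arrays miR-122-5p was nonetheless flagged as detected. The brain part of 3 h at 4 °C had its highest level there, 4.86, followed by the parts of 1 h (4.06) and 24 h (3.94) at RT.

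More miRNAs were detected in brain than in liver. The brain arrays had 491 to 593 detected miRNAs, with a mean of 545 ± 28.2 (SD, n = 14), and the liver arrays 268 to 381, with a mean of 334 ± 41.1 (SD, n = 6). The groups did not overlap, and the difference of 210 miRNAs had p = 2.58e-05 in an exact 2-sided permutation test. The summed signal of the detected miRNAs moved the same way, with 249616 to 504440 units in brain and 153088 to 359798 in liver, and its part in the number of detected miRNAs was not tested. No miRNA spot was saturated (0 on every array). The liver array of 0 h at 4 °C had the fewest detected miRNAs, 268, although its RIN value of 9.1 was the highest.

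Of the 1881 miRNAs on the array, 1142 were detected on none of the 20 arrays, and the 595 detected on at least 5 were tested. This minimum asks for 5 of 14 arrays from a miRNA of brain alone, and for 5 of 6 from a miRNA of liver alone. A miRNA was called where the exact 2-sided Wilcoxon-Mann-Whitney (WMW) test gave a Benjamini-Hochberg adjusted p under 0.05 and the means differed at least 2-fold, a difference of 1. By this rule 320 miRNAs (53.8% of those tested) were higher in brain and 37 (6.22%) were higher in liver. Among the called miRNAs, 151 were over 8-fold higher in brain and 10 were over 8-fold higher in liver. The levels of the 2 tissues did not overlap for 270 miRNAs, 254 with brain above and 16 with liver above. These 270 share the smallest p that 14 arrays against 6 allow, 5.16e-05, and the adjusted p of 0.000114.

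The split between the directions depended on how the arrays were scaled to each other. The median difference over the 595 miRNAs was 1.35, in favour of brain, and all differences below are to be read against this shift. It was 0.66 with scaling to the 75th percentile of the miRNAs detected on all 20 arrays, where 247 were called higher in brain and 118 in liver. With quantile normalization it was 0.11, with 211 and 172 calls. With normexp background correction followed by quantile normalization, called normexp below, the median was 0.01, with 75 and 64 calls. With no scaling it was 1.91, with 405 and 23 calls. Of the calls in favour of brain, 318 of 320 had the same sign among the 4 °C arrays (8 against 5) and among the RT arrays (6 against 1), as had 37 of 37 in favour of liver. The exceptions, miR-664-5p and miR-691, were 1.95 and 4.01 higher in brain at 4 °C and -0.96 and -0.85 at RT.

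Detection set the tissues apart as well. Of the tested miRNAs, 401 were detected in both tissues, 186 on no liver array and 8 on no brain array. There were 117 miRNAs detected on all brain arrays and no liver array, and 4 detected on all liver arrays and no brain array, which were miR-122-3p, miR-192-3p, miR-802-5p and miR-21a-3p. Of the 320 calls in favour of brain, 165 were for miRNAs detected on no liver array. Among the 203 miRNAs detected on all 20 arrays the median difference was 0.66, with 77 called higher in brain, 22 higher in liver and 104 not called.

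**Figure D1:**
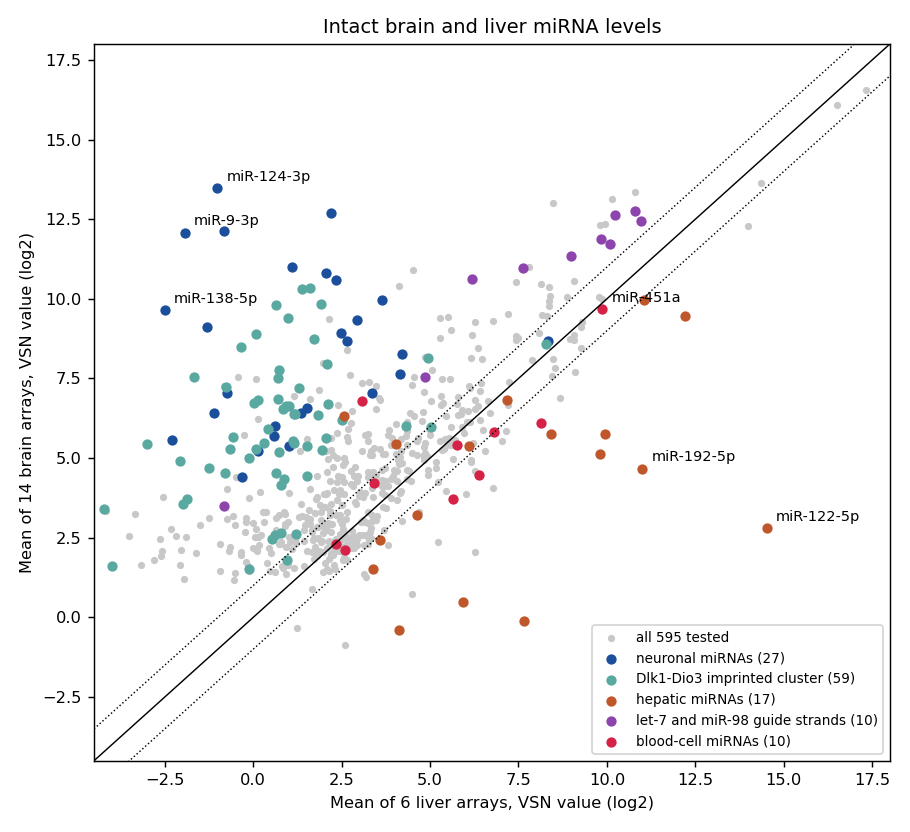
Mean VSN level (log2) of each of the 595 tested miRNAs over the 6 liver arrays (horizontal axis) and the 14 brain arrays (vertical axis), with the solid line at equality and dotted lines 1 unit to either side. MiR-124-3p and miR-122-5p lie in opposite corners, neuronal and Dlk1-Dio3 miRNAs lie above the line, and most hepatic miRNAs lie below it.

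Neuronal miRNAs were far higher in brain than in liver. Of 28 listed miRNAs known from neurons or neural progenitors, 27 were tested. Of these, 26 were higher in brain (against 53.8% of all tested miRNAs) and 0 higher in liver (against 6.22%). Their median difference was 6.4, against 1.35 over all tested miRNAs, and 18 of the 27 were detected on no liver array. The count was 26 under 75th percentile scaling and 26 under quantile normalization, where 1 was called higher in liver, and 20 under normexp, with 1 in liver. The exception was miR-212-3p, the partner of miR-132 in an activity-induced neuronal cluster.

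The arms of miR-9, which controls the timing of neurogenesis, gave levels of 11.80 to 12.88 (median 12.11) for miR-9-5p and of 11.60 to 13.30 (median 12.04) for miR-9-3p on the brain arrays. Neither arm was detected on any liver array, where the highest values were 0.10 and -1.12. Both arms thus stood far apart between the tissues without overlap. Against the lowest detected level of each liver array, used from here on as a floor for miRNAs that were not detected there, miR-9-5p was at least 1402-fold and miR-9-3p at least 1359-fold higher in brain (adjusted p = 0.000114 each, exact WMW test, n = 14 and 6). By the same measure miR-124-3p, which holds back non-neuronal transcripts in neurons, was at least 3596-fold higher. Its mean levels were 13.48 ± 0.222 (SD) in brain and -1.01 ± 0.721 in liver. These bounds, and those below, hold on the scale of the deposited values. Under normexp, the lowest alternative, the differences were 6.04 for each arm of miR-9 and 8.04 for miR-124-3p.

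MiR-138-5p, known from dendrites and dendritic spines, was at 8.74 to 10.41 (median 9.64) in brain and detected on 0 liver arrays, at least 253-fold higher. MiR-153-3p, which targets genes of synaptic vesicle release, was at 8.47 to 9.64 (median 9.10) in brain and at least 174-fold higher. MiR-218-5p, a marker of motor neurons with wider expression in brain, was at 10.17 to 11.68 (median 11.10) and at least 639-fold higher. The brain and liver levels of these miRNAs did not overlap. MiR-128-3p, which restrains neuronal excitability, was at 11.98 to 13.94 (median 12.70) in brain, and at 1.08 to 2.57 (median 2.47) in liver with 1 of 6 arrays detected, a difference of 10.48.

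The cluster of miR-212 and miR-132 on chromosome 11 did not move as 1 unit. MiR-132-3p was at 10.12 to 11.53 (median 10.88) in brain and detected on 0 liver arrays, at least 395-fold higher. MiR-212-5p was at 4.76 to 6.69 (median 5.32) in brain and also detected on 0 liver arrays, at least 13.1-fold higher. MiR-212-3p, in contrast, had overlapping levels of 7.98 to 9.25 (median 8.68) in brain and 7.40 to 9.11 (median 8.36) in liver, where all 6 arrays detected it, and its difference of 0.36 was not called (adjusted p = 0.246, exact WMW test). That difference turned to -0.58 under 75th percentile scaling and to -1.15 under quantile normalization.

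**Figure D2:**
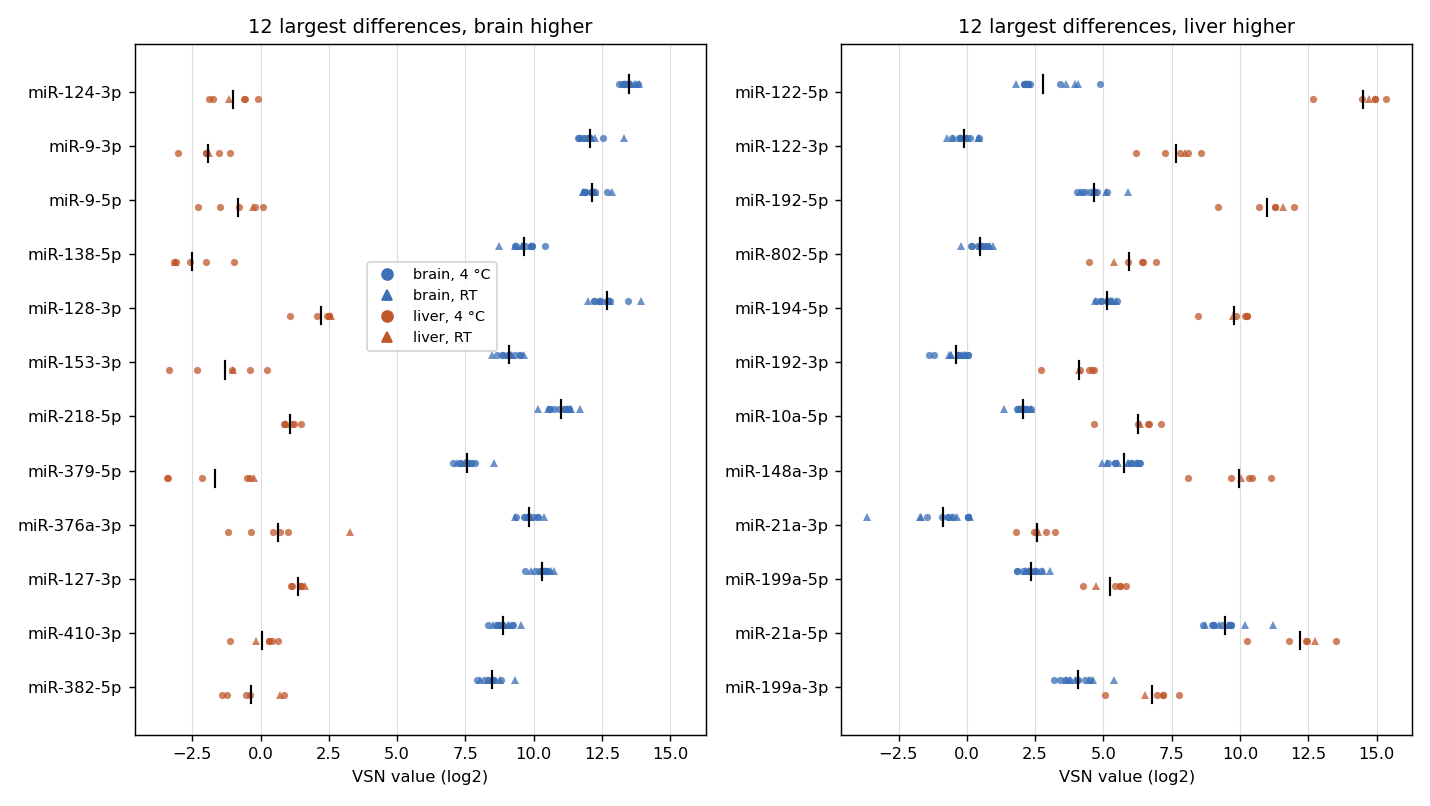
VSN levels (log2, horizontal axis) on each of the 14 brain and 6 liver arrays for the 12 miRNAs with the largest differences in each direction, circles for 4 °C and triangles for RT, with black bars at the means. The tissues are separate for each of them except miR-21a-5p and miR-199a-3p, where the lowest liver array reaches into the brain range.

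Oligodendrocyte miRNAs were higher in brain as well, with a median difference of 6.33. Of 5 listed, 4 were tested, and 4 were higher in brain, against 53.8% of all tested miRNAs. MiR-219a-5p, which promotes the maturation of oligodendrocytes, was at 9.88 to 12.11 (median 10.89) in brain and 2.90 to 5.67 (median 4.69) in liver, and miR-338-3p, its partner in myelination, at 9.41 to 12.36 (median 10.36) and 2.49 to 5.49 (median 4.42). The differences were 6.39 and 6.26 with no overlap. Both were detected on 5 of the 6 liver arrays, the array of 0 h at 4 °C being the exception, so that liver had a low but detected signal. Whether such low signals came from the miRNA itself was not tested. The paper also obtained signals on this type of array from liver RNA largely depleted of small RNAs. MiR-219a-2-3p, the other arm of a miR-219a hairpin, was detected on 0 liver arrays and was at least 48.8-fold higher in brain. MiR-338-5p had the smallest difference, 1.49, near the median of 1.35 over all tested miRNAs. The count was 4 under 75th percentile scaling, and 3 under quantile normalization, under normexp and with a RIN of 8 or more.

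The imprinted Dlk1-Dio3 region on chromosome 12, whose miRNAs are expressed from the maternal chromosome in embryo, placenta and brain, gave the largest number of brain miRNAs from 1 place. Of its hairpins, 36 span chr12:109563692-109747960 on the + strand, and that of miR-1906 lies before this stretch. Of 106 arms of listed hairpins on the array 59 were tested, from 42 hairpins. Of these arms, 56 were higher in brain (against 53.8% of all tested miRNAs) and 0 higher in liver (against 6.22%). The median difference was 5.50, against 1.35 over all tested miRNAs. Of the 59, 57 were detected on all 14 brain arrays and 49 on no liver array. The count was 55 under 75th percentile scaling and 54 under quantile normalization, each time near the 56 of the deposited values, and 26 under normexp, with 1 arm called higher in liver under the latter and under quantile normalization.

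The largest differences were spread along the inner part of the region, while its first and last tested arms, miR-1906 and miR-3072-5p, had differences of 1.69 and 0.95. Towards its start, miR-127-3p, which lies antisense to the retrotransposon-like gene Rtl1, was at 9.69 to 10.74 (median 10.37) in brain and detected on 0 liver arrays, at least 398-fold higher. In the miR-379 to miR-410 cluster, miR-379-5p was at 7.05 to 8.54 (median 7.51) in brain and at least 59.3-fold higher, and miR-410-3p was at 8.33 to 9.54 (median 8.87) and at least 149-fold higher. MiR-382-5p of the same cluster was at 7.92 to 9.32 (median 8.47) and at least 112-fold higher. These miRNAs had brain levels that lay within 1.5 units over all 14 arrays, at every storage time. MiR-376a-3p was at 9.31 to 10.38 (median 9.79) in brain, and its liver levels ran from -1.19 to 3.28, the highest being the RT array, the 1 liver array of 6 that detected it.

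Members of the region that did not follow were few. MiR-494-3p was at 7.74 to 9.06 (median 8.78) in brain and at 6.63 to 9.25 (median 8.91) in liver, detected on all 20 arrays, with a difference of 0.30 (adjusted p = 0.703, exact WMW test) that became -0.64 under 75th percentile scaling. MiR-667-3p and miR-3072-5p passed the adjusted p but not the 2-fold minimum, with differences of 0.87 and 0.95. MiR-3070-2-3p, which the list did not cover and the counts above leave out, lies in the same region. It was not called, with a difference of -0.058. MiR-134-5p, which limits the growth of dendritic spines, was called, with a difference of 3.31, but was the most variable member in brain. Its level at 4 °C was 3.25 at 0 h and 8.66 at 96 h, against 0.15 to 3.91 in liver, and with 6 arrays per tissue of matched storage its difference was 2.06 and not called (adjusted p = 0.23).

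**Figure D3:**
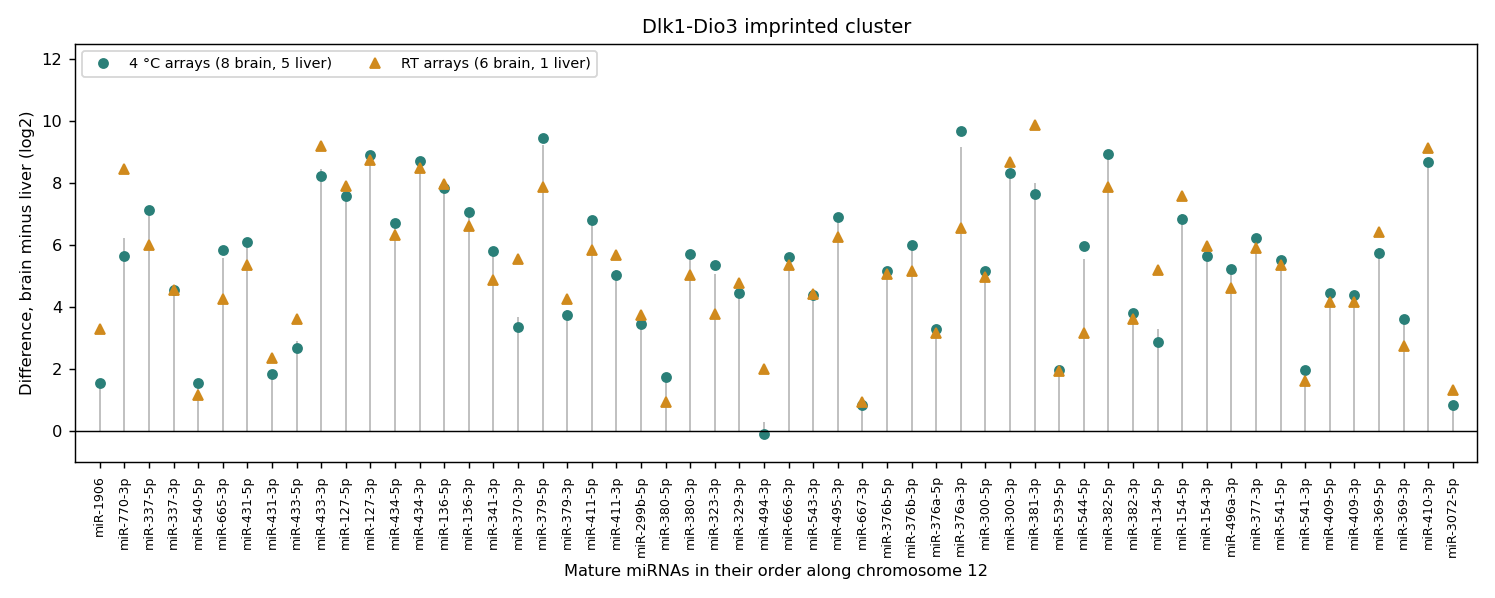
Difference of brain minus liver (log2) for the 56 tested Dlk1-Dio3 miRNAs with a RefSeq position, in their order along chromosome 12, among the 4 °C arrays (circles) and the RT arrays (triangles), with grey lines up to the difference over all arrays. All values lie above 0 except that of miR-494-3p at 4 °C (-0.08).

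Further miRNAs high in brain, which apart from miR-181a-5p of the neuronal list lay outside these lists, are named after their values were seen. The 4 tested members of the miR-181 seed family, known from lymphocytes and neurons, were all higher in brain, against 53.8% of all tested miRNAs. The differences were 6.4 for miR-181a-5p, 5.30 for miR-181c-5p, 4.86 for miR-181b-5p and 3.35 for miR-181d-5p. MiR-204-5p, a miRNA of choroid plexus and retinal pigment epithelium, was at 7.99 to 10.99 (median 9.64) in brain and 1.61 to 2.76 in liver, with 1 of 6 liver arrays detected. MiR-221-3p and miR-222-3p, which share a seed and a cluster on the X chromosome, were 3.49 and 5.73 higher in brain. MiR-384-5p, which has the seed of the miR-30 family, was detected on 0 liver arrays and at least 59.1-fold higher.

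Several families that most tissues express were higher in brain by smaller amounts. The 10 guides of the let-7 family with miR-98 promote the differentiated state and share the seed GAGGUAG. Of these, 10 were tested and 10 called higher in brain (against 53.8% of all tested miRNAs), with a median difference of 2.39. Let-7a-5p was at 12.19 to 13.65 (median 12.72) in brain and 8.96 to 11.54 (median 11.17) in liver, a difference of 1.94. Let-7e-5p had the largest difference, 4.42, at 10.11 to 11.52 (median 10.57) in brain and 4.50 to 7.0 (median 6.47) in liver. The smallest was that of let-7f-5p, 1.48. This direction rested on the scaling, with 7 members called higher in brain under 75th percentile scaling, 4 under quantile normalization and 2 under normexp, and with let-7f-5p turned to -0.38 and -0.30 under the last 2. Let-7e-5p kept a difference of 2.38 to 5.09 under the 5 scalings and corrections tried. Members of this family differ in few bases, as these 3 sequences show, so that their signals on the array may not be fully separate.
let-7a-5p: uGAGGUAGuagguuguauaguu
let-7e-5p: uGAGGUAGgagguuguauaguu
let-7f-5p: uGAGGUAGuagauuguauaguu

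The guides of miR-99, miR-100 and miR-125, which sit in clusters with let-7 genes, were all higher in brain as well (5 of 5, against 53.8% of all tested miRNAs, median difference 3.40). MiR-125b-5p, abundant in neurons and astrocytes, was at 12.63 to 13.93 (median 13.03) in brain and 6.86 to 9.03 (median 8.77) in liver, a difference of 4.53. Their count was 5 under 75th percentile scaling, 4 under quantile normalization and 3 under normexp. Let-7e and miR-125a, which lie within the same cluster on chromosome 17, were 4.42 and 3.92 higher. Let-7c and miR-99a, paired on chromosome 16, were 2.43 and 2.33 higher.

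Of the miR-29 and miR-30 guides, 7 of 8 were called higher in brain, against 53.8% of all tested miRNAs. Their median difference was 1.61, near the 1.35 of all tested miRNAs. MiR-29b-3p, a regulator of collagen genes that rises as neurons mature, had the largest difference, 3.01, and miR-30a-5p the smallest, 0.28, which was not called (adjusted p = 0.754, exact WMW test). Under 75th percentile scaling 3 of the 8 were called higher in brain, and under quantile normalization 1 was called higher in each tissue. The median difference was 0.06 in the latter.

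**Figure D4:**
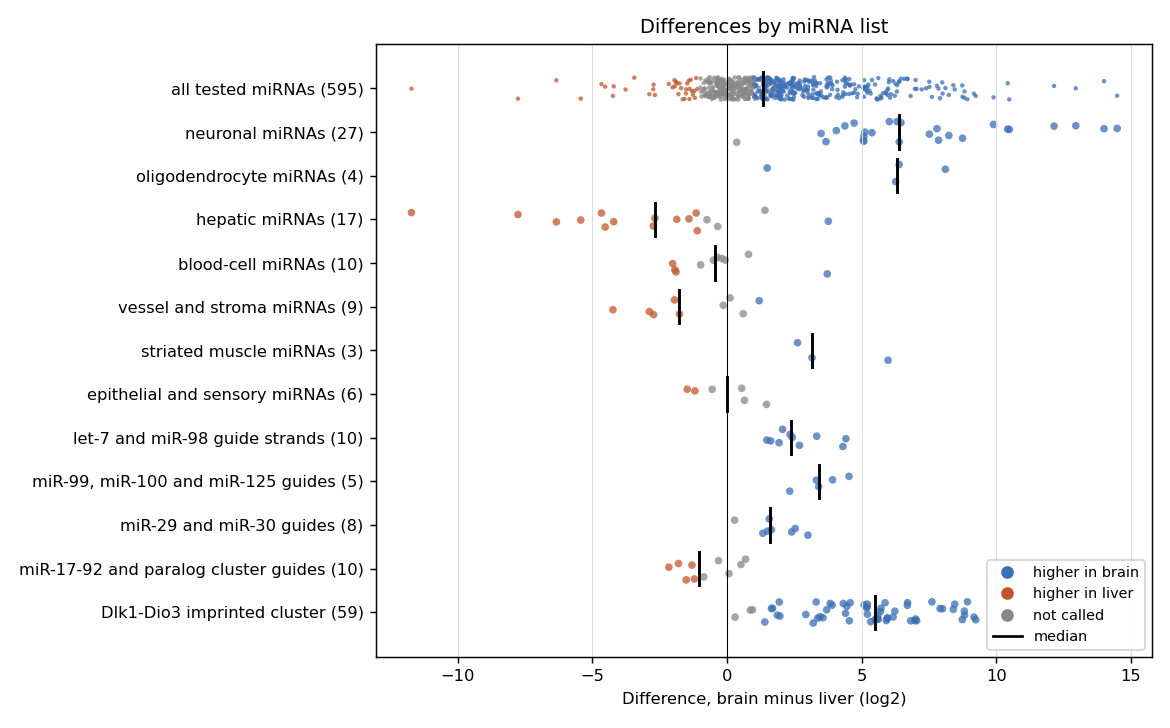
Difference of brain minus liver (log2, horizontal axis) of every tested miRNA and of the members of each list, with the number tested in brackets, black bars at the medians and colours for the call. The medians of the neuronal, oligodendrocyte and Dlk1-Dio3 lists lie at 6.4, 6.33 and 5.50, and that of the hepatic list at -2.67.

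Hepatic miRNAs stood on the other side. Of 21 listed miRNAs on the array, 17 were tested, and 13 were higher in liver and 1 in brain, where 6.22% of all tested miRNAs were higher in liver. The median difference was -2.67. The count in favour of liver was 15 under 75th percentile scaling and quantile normalization, 10 with no scaling and 11 under normexp. The member higher in brain was miR-193b-3p.

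MiR-122 led the list with both arms. MiR-122-5p, which regulates cholesterol and lipid metabolism in hepatocytes, fell by 11.71 from liver to brain (mean 14.52 ± 0.952 (SD) in liver and 2.81 ± 0.969 in brain). MiR-122-3p was at 6.19 to 8.58 (median 7.90) in liver and detected on 0 brain arrays, at least 83.6-fold higher in liver.

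MiR-192-5p and miR-194-5p, known from hepatocytes and gut epithelium, were the next. MiR-192-5p was at 9.20 to 11.99 (median 11.28) in liver and 4.04 to 5.90 (median 4.66) in brain, a difference of -6.33. MiR-194-5p was at 8.47 to 10.27 (median 10.02) in liver and 4.68 to 5.52 (median 5.14) in brain, a difference of -4.66. Both were detected on all 14 brain arrays, and whether these lower brain signals came from the miRNAs themselves was not tested. The 3p arm of miR-192, at 2.72 to 4.64 (median 4.31) in liver, was detected on 0 brain arrays and was at least 7.20-fold higher in liver. MiR-802-5p was at 4.46 to 6.91 (median 6.17) in liver, was detected on 0 brain arrays and was at least 25.3-fold higher.

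MiR-148a-3p, which acts in hepatocyte differentiation, was at 8.11 to 11.12 (median 10.19) in liver and 4.94 to 6.34 (median 5.91) in brain, a difference of -4.20. MiR-21a-5p, present in most tissues and raised in injury and growth, was at 10.27 to 13.50 (median 12.43) in liver and 8.63 to 11.19 (median 9.46) in brain. Its groups overlapped through 1 array of each tissue, liver of 0 h at 4 °C and brain of 1 h at RT, and the difference was -2.73 (adjusted p = 0.000215, exact WMW test, n = 14 and 6). MiR-21a-3p was detected on all 6 liver arrays and 0 brain arrays, at least 2.49-fold higher in liver. Smaller differences were those of miR-101b-3p (-1.41), miR-22-3p (-1.10) and miR-455-3p (-1.14), all with overlapping groups. Hepatic members that were not called were miR-365-3p (-0.34), miR-378a-3p (-0.74, adjusted p = 0.00757 but under 2-fold) and miR-33-5p (1.41, adjusted p = 0.0549, exact WMW test), the intronic partner of Srebf2.

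Vessel and stroma miRNAs did not move as 1 group. Of 9 tested, 5 were higher in liver (against 6.22% of all tested miRNAs) and 1 in brain (against 53.8%). The 5 include miR-10a-5p and miR-10b-5p, described below. With quantile normalization 8 were higher in liver and 0 in brain, where 172 and 211 of all 595 tested miRNAs were called. MiR-126a-3p, the miRNA of endothelial cells, was not called, at 9.44 to 10.97 (median 9.90) in brain and 8.10 to 10.71 (median 10.10) in liver, with a difference of 0.12 (adjusted p = 0.542, exact WMW test) that was -0.83 under 75th percentile scaling and -1.46 under quantile normalization. MiR-199a-5p, miR-199a-3p and miR-214-3p, known from fibroblasts and hepatic stellate cells, were higher in liver, with differences of -2.88, -2.72 and -1.95. A hairpin of miR-199a and that of miR-214 lie in a transcript antisense to Dnm3. The arms of miR-199a can also come from a hairpin inside Dnm2 on chromosome 9, and the arrays cannot tell these sources apart. MiR-199a-5p was at 4.24 to 5.82 (median 5.51) in liver and 1.84 to 3.05 (median 2.29) in brain. MiR-145a-5p of smooth muscle was 1.2 higher in brain with overlapping groups, and -0.15 under quantile normalization. MiR-143-3p of the same list, detected on all 14 brain and 6 liver arrays, was not called.

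The Hox-linked miR-10 family, which marks tissue by its position along the body axis, was higher in liver in both members. MiR-10a-5p was at 4.67 to 7.10 (median 6.48) in liver and 1.36 to 2.36 (median 2.06) in brain, where 3 of 14 arrays detected it, a difference of -4.23. MiR-10b-5p was detected on 5 of 6 liver arrays and 0 brain arrays and was at least 3.16-fold higher in liver.

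Blood-cell miRNAs were measured because both organs hold blood. The erythrocyte miRNA miR-451a was at 8.96 to 11.17 (median 9.53) in brain and 8.51 to 10.88 (median 10.23) in liver, overlapping, with a difference of -0.20 (adjusted p = 0.647, exact WMW test) that was -1.15 under 75th percentile scaling and 0.44 with no scaling. The highest brain value, 11.17, was that of 1 h at RT, which was also the highest brain array for miR-21a-5p, miR-192-5p and miR-1a-3p, and for the brain-rich miR-124-3p (13.86), miR-128-3p (13.94), let-7a-5p (13.65) and miR-125b-5p (13.93). Of 10 tested members 3 were higher in liver, against 6.22% of all tested miRNAs. The 3 were miR-142a-3p (-2.02) and miR-142a-5p (-1.93), found in all blood lineages and Kupffer cells, and miR-223-3p (-1.89) of myeloid cells. Under 75th percentile scaling 7 of the 10 were called higher in liver, as were 118 of all 595 tested miRNAs. MiR-150-5p, a lymphocyte miRNA, was higher in brain by 3.72, at 6.51 to 7.19 (median 6.79) against 1.6 to 4.13 (median 3.23).

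The cluster of miR-17 to miR-92a and its relatives, linked to the cell cycle, leaned to liver. Of 10 tested guides 5 were higher in liver (against 6.22% of all tested miRNAs) and 0 in brain (against 53.8%), with a median difference of -1.04. The count of guides higher in liver was 6 under 75th percentile scaling, 9 under quantile normalization and 2 with no scaling, where 2 were higher in brain. MiR-19a-3p was at 4.40 to 7.19 (median 6.27) in liver and 3.19 to 4.94 (median 3.85) in brain, a difference of -2.16, and miR-19b-3p, with the same seed, differed by -1.80. MiR-92a-3p (-1.51), miR-20a-5p (-1.30) and miR-20b-5p (-1.21) followed with overlapping groups. The guides of the third cluster were not called, with differences of 0.69 for miR-106b-5p, 0.52 for miR-93-5p and 0.07 for miR-25-3p.

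Families with 1 seed were compared member by member. Of the 45 seeds shared by at least 2 tested miRNAs, 20 had all members higher in brain and 2 had all members higher in liver, which were those of miR-10 and miR-19, where 53.8% and 6.22% of all tested miRNAs were called in these directions. In 3 families, members were called in opposite directions, and the sequences of these are given above.

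MiR-193a-3p was the liver member of the first, at 7.5 to 8.89 (median 8.58) in liver and 4.82 to 6.41 (median 5.77) in brain. MiR-193b-3p was the brain member, at 5.44 to 7.47 (median 6.11) in brain and 2.22 to 2.88 (median 2.55) in liver, where 2 of 6 arrays detected it. The differences were -2.67 and 3.76, without overlap and with the same signs in both animals (-2.80 and 3.77 at 4 °C, -2.63 and 3.92 at RT). Counted from the 5′ end, with the base of miR-193a-3p first, the sequences differ by U9C, A20G and G21C, so that the probes had to tell 3 bases apart. Neither sign turned under the scalings tried, although the value of miR-193b-3p fell to 0.88 under normexp.

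In the second family, miR-148a-3p was higher in liver (-4.20) while miR-148b-3p was higher in brain (1.72), at 5.02 to 6.88 (median 5.6) in brain and 2.59 to 4.77 (median 4.11) in liver. The sequences differ by C9U and U10C, with the base of miR-148a-3p first. MiR-152-3p had overlapping levels of 4.91 to 5.86 (median 5.42) in brain and 3.86 to 6.30 (median 5.88) in liver and was not called. The liver call of miR-148a-3p held under every scaling tried, while the brain call of miR-148b-3p was lost under 75th percentile scaling (0.91), quantile normalization (0.09) and normexp (-0.05).

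The third family held miR-130a-3p, higher in liver by a difference of -1.38 (adjusted p = 0.00549, exact WMW test), and miR-130b-3p and miR-301a-3p, higher in brain. MiR-130a-3p was at 6.87 to 8.31 (median 7.84) in brain and 7.77 to 9.80 (median 9.29) in liver, overlapping. MiR-301a-3p was at 6.4 to 8.75 (median 7.23) in brain and 1.97 to 4.97 (median 3.59) in liver, a difference of 3.8. MiR-130b-3p was at 2.43 to 4.76 (median 2.87) in brain and detected on 0 liver arrays, at least 2.74-fold higher. The call of miR-130a-3p was lost with no scaling (-0.75) and with a RIN of 8 or more (adjusted p = 0.24, exact WMW test), and that of miR-130b-3p under normexp (0.25). MiR-130b-3p differs from miR-130a-3p by U11A and A13G, with the base of miR-130a-3p first. MiR-721 of the same seed ran from 2.30 to 10.31 in liver and was not called.

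**Figure D5:**
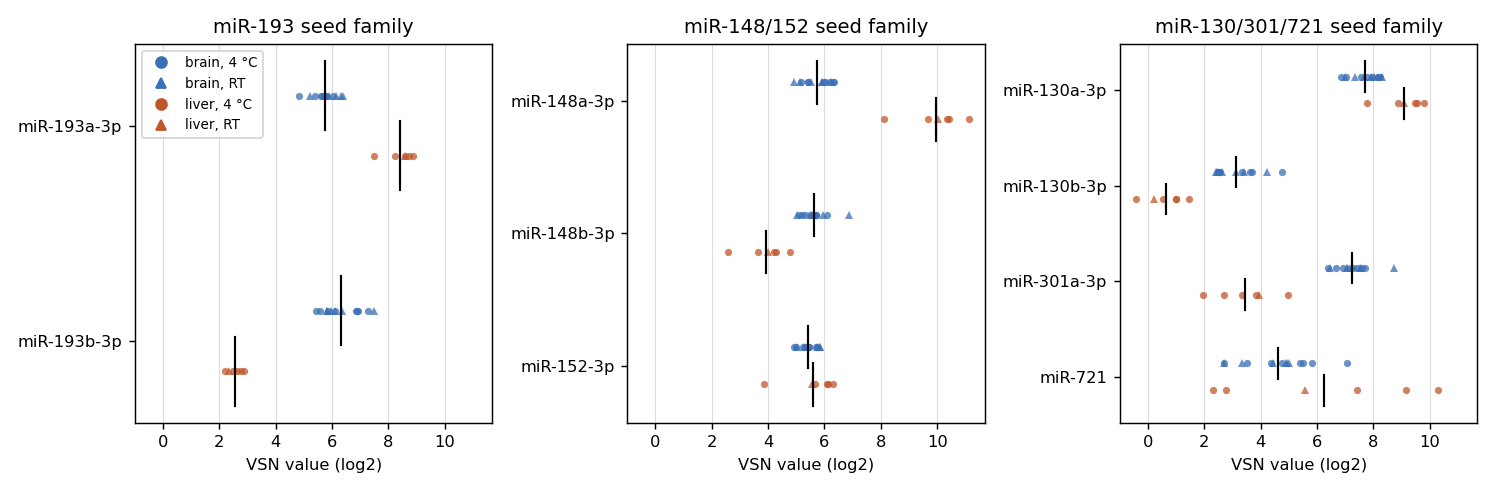
VSN levels (log2, horizontal axis) on the 14 brain and 6 liver arrays for the members of the 3 seed families called in opposite directions, circles for 4 °C and triangles for RT, with black bars at the means. The tissues change places between miR-193a-3p and miR-193b-3p, and between miR-148a-3p and miR-148b-3p.

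The arms of each hairpin were compared in the same way. Both arms were tested for 102 hairpins. Of these, 48 had both arms higher in brain and 7 had both higher in liver (miR-122, miR-142a, miR-192, miR-193a, miR-199a, miR-21a and miR-455), beside the 53.8% and 6.22% of all tested miRNAs. In 30 hairpins 1 arm was called and in 17 none was, and 0 had arms called in opposite directions. The widest gap between the arms of a hairpin with 1 call was that of miR-551b, with 6.03 for the 3p arm and 0.18 for the 5p arm. The next were those of miR-3475 (-0.58 for 5p and 5.11 for 3p), miR-212 (4.38 and 0.36), miR-149 (3.68 and -0.04), let-7e (4.42 and 0.99) and miR-139 (4.06 and 0.93).

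Hairpins that lie within 10000 bases on 1 strand gave a like picture. In 37 such clusters at least 2 hairpins had a tested arm. Of these, 13 had all tested arms higher in brain and 3 had all higher in liver, beside the 53.8% and 6.22% of all tested miRNAs. Calls in both directions were held by 0. The clusters for liver were miR-192 with miR-194-2 on chromosome 19, miR-199a-2 with miR-214 on chromosome 1, and the cluster of miR-92a-2, miR-19b-2 and miR-20b on the X chromosome. The mature forms of miR-92a and miR-19b also come from the cluster on chromosome 14, where 4 of 7 arms were higher in liver. Clusters for brain shared mature forms too, and are not all separate. MiR-181a-5p and miR-181b-5p counted on chromosomes 1 and 2, miR-29b-3p on 1 and 6, and miR-24-3p on 8 and 13. The cluster of miR-344d on chromosome 7 had 1 tested arm. The clusters of miR-144 and miR-451a, of miR-200b, miR-200a and miR-429, and of miR-25, miR-93 and miR-106b had no called arm.

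Muscle and epithelial miRNAs were listed as markers of cells that neither organ should be rich in. Of 7 striated muscle miRNAs 3 were tested, and 3 were higher in brain, as were 53.8% of all tested miRNAs, each of the 3 being detected on all 14 brain and 0 liver arrays. MiR-1a-3p was at 5.02 to 7.84 (median 5.6) in brain, and its highest value was again that of the part of 1 h at RT. The 13 intact heart arrays of the series, leaving out the one of 0 h at 4 °C, had a mean of 14.50 ± 0.228 (SD) for miR-1a-3p, so that brain lay far below heart. MiR-133a-3p and miR-133b-3p were at least 5.67-fold and 8.66-fold higher in brain than in liver. Under normexp 0 of the 3 were called. The heart-restricted members miR-208a-3p and miR-208b-3p were detected on 0 of the 20 arrays, and miR-499-5p on 1 brain array.

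Most of the tested epithelial and sensory miRNAs differed between parts of the brain more than between the tissues. MiR-200a-3p had a brain range of 2.15 to 11.83 (median 4.16) and a liver range of 2.50 to 5.0 (median 4.35). Its value was 11.83 in the brain part of 3 h and 8.34 in that of 24 h, both at 4 °C, and at most 4.78 in the others. The same parts were the highest for miR-200b-3p (10.72 and 7.5), miR-429-3p (11.08 and 7.84), miR-141-3p (9.64 and 6.22) and miR-96-5p (10.53 and 6.71). The hairpins of miR-200a, miR-200b and miR-429 share a cluster on chromosome 4, while those of miR-141 and miR-96 lie elsewhere. The miR-200 family is known from epithelia and olfactory tissue, and miR-96 from sensory cells. At 4 °C the parts of 12, 48 and 96 h had 4.38, 4.18 and 4.14 for miR-200a-3p. Of 6 tested members of the list, miR-96-5p (-1.19) and miR-203-3p (-1.47) were called higher in liver (against 6.22% of all tested miRNAs) and 0 higher in brain (against 53.8%), with a median difference of -0.00. Without the brain parts of 3 h and 24 h at 4 °C, 3 were called higher in liver with a median of -0.87, and among the 4 °C arrays 0 in liver and 1 in brain with a median of 1.23. With 6 arrays per tissue of matched storage, miR-96-5p had a difference of 0.18 and was not called (adjusted p = 0.55).

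MiRNAs known from ciliated epithelium varied among brain parts as well, over smaller ranges than miR-200a-3p. MiR-34c-5p ran from 4.00 to 8.36 (median 6.34) in brain, and miR-34b-5p from 4.97 to 9.03 (median 7.01), both detected on all 14 brain and 0 liver arrays. Outside that group, miR-1298-5p ran from -1.29 to 5.97 (median 2.34), with 8 of 14 arrays detected. By contrast, the SD between brain arrays was 0.43 for the median tested miRNA and 0.72 between liver arrays, and 0.222 for miR-124-3p.

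A few called miRNAs differed between storage times. MiR-3968, called higher in liver with a difference of -1.70, was at 13.63 at 0 h and 11.24 at 96 h in brain at 4 °C, and at 13.13 at 0 h and 10.24 at 24 h at RT, against 13.30 to 14.67 in liver. With 6 arrays per tissue of matched storage its difference was -0.79 (adjusted p = 0.063) and not called. Of the 37 miRNAs higher in liver, 1, this one, carried a number of 3000 or more in its name, which stands for late registration. Such a number was carried by 66 of the 320 higher in brain (20.6%) and 118 of the 238 not called (49.6%). Over all 595 tested miRNAs it was 185 (31.1%).

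The smallest differences were spread over dim and bright miRNAs. The 6 smallest differences among miRNAs detected on all 20 arrays, all under 0.1, were those of miR-1897-5p, miR-26b-5p, miR-149-3p, miR-25-3p, miR-8105 and miR-7666-3p. MiR-26b-5p was at 9.27 ± 0.47 (SD, n = 14) in brain and 9.31 ± 0.96 (n = 6) in liver. Their directions changed with the scaling.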

How the data were processed

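Total RNA without DNase treatment was hybridised by the authors to Agilent SurePrint mouse miRNA arrays (Release 21.0). The deposited log2 values are the authors' VSN values of all arrays together. The deposited scanner files hold spot intensity and detection flags from Feature Extraction 10.10.1.1. Where the methods and the labels gave different hours for a storage time, the labels were used. The members and lists were chosen with earlier results of these data known.

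MiRNAs detected on at least 5 of the 20 arrays were tested with the exact 2-sided WMW test and Benjamini-Hochberg adjustment over all 595. Named miRNAs were the 12 largest differences in each direction, the members of the lists and of seed families called both ways, and the 6 smallest differences, with others named as such. For a miRNA detected on no array of a tissue, the fold is a bound against the lowest detected value of each array, on the scale of the deposited values. Alternatives were other scalings, normexp, other filters, left-out arrays, matched storage, RIN of 8 or more, and limma with temperature or slide as a block. Normexp used an offset of 50 and median signals, as mean signals were not in the files, and was followed by quantile normalization. The number of arrays limits the precision. Tools were Python 3.11.15, numpy 2.4.6, scipy 1.17.1, pandas 2.3.3, matplotlib 3.10.9, R 4.3.3 and limma 3.58.1, and the test was tested on simulated data.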

Additional observations from a re-analysis of the deposited data

Results flagged for a closer look

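In 40 sets of 6 liver levels checked, 8 had 1 array apart from the other 5. Chance gives about 1 in 20 for a set by itself, but the 40 sets come from the same 6 arrays and are not independent. In all 8 the array apart was the liver array of 0 h at 4 °C, which had the lowest level. Its gap to the next array, as a share of the range of the 6, was 0.67 for miR-128-3p, 0.666 for miR-122-5p, 0.70 for miR-194-5p, 0.72 for miR-192-3p, 0.655 for miR-10a-5p, 0.692 for miR-152-3p, 0.632 for miR-26b-5p and 0.649 for miR-25-3p. Without this array 308 miRNAs were called higher in brain and 43 higher in liver.

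The difference between brain and liver was not the same at both temperatures for miR-376a-3p, at 9.68 at 4 °C and 6.56 at RT. The change of -3.12 passed limma's test of the interaction (adjusted p = 0.0148). RT has 1 liver array, with a level of 3.28, and temperature, animal and slide cannot be told apart.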

How the results depend on the processing

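The count in favour of brain (320) was 211 with quantile normalization, 75 with normexp and 495 with no filter. The count in favour of liver (37) was 118 with 75th percentile scaling, 172 with quantile normalization, 23 with no scaling, 64 with normexp, 23 with a RIN of 8 or more, 315 with no filter and 72 with no fold minimum. For the 12 largest differences in each direction, 334 of 336 alternatives kept direction and call, the others being miR-192-3p (-1.0) and miR-21a-3p (-0.34) under normexp. Differences near 0 changed sign. With no scaling, miR-152-3p was at 0.48, miR-1897-5p at 0.65, miR-26b-5p at 0.61, miR-149-3p at 0.67, miR-8105 at 0.65 and miR-7666-3p at 0.58. With scaling to the summed signal, miR-1897-5p was at 0.018, miR-149-3p at 0.038 and miR-8105 at 0.025. With a RIN of 8 or more, miR-152-3p was at 0.072, miR-1897-5p at 0.069 and miR-26b-5p at 0.32. MiR-25-3p was at -0.86 with 75th percentile scaling, -1.67 with quantile normalization, -1.0 with normexp, -0.031 with the 4 °C arrays and -0.25 without the liver array of 0 h at 4 °C. MiR-148b-3p was at -0.048 under normexp, miR-7666-3p at 0.021 with the 4 °C arrays, miR-1897-5p at 0.082 with temperature as a block in limma, miR-26b-5p at 0.0033 without the brain array of 96 h at 4 °C, and miR-149-3p at 0.024 with brain 3 h and 24 h at 4 °C left out. The cause was not tested. The removal of liver 0 h at 4 °C, or of that brain pair, was chosen after seeing the data. With storage temperature, which is also the animal, as a block in limma the counts were 330 and 37, and with 6 arrays per tissue of matched storage 291 and 33. Signals near the background limit the size of differences for miRNAs not detected in a tissue.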

Other observations

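By limma's interaction test, 6 miRNAs differed between 4 °C and RT in the difference of brain minus liver. Besides miR-376a-3p these were miR-150-5p (3.31 at 4 °C and 5.36 at RT), miR-330-5p (1.24 and 3.72), miR-3475-3p (5.36 and 3.12), miR-664-5p (1.95 and -0.96) and miR-691 (4.01 and -0.85), with 1 liver array at RT.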
